A study of Homo sapiens with 9 samples.

Results

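The genes described are 38 genes of the ATF4 response, among them 12 aminoacyl-tRNA synthetases, taken by symbol from a fixed list in all 9 files and kept where they were above 0 in at least 1 group. Of these, 37 passed and CBS, which makes cystathionine, is listed at 0 in every file, so 37 of the 13825 genes tested are members. They were sorted into 5 genes of serine synthesis and one-carbon metabolism, 6 other enzymes of amino acid synthesis (CBS included), 14 stress factors and feedback genes, and 12 tRNA synthetases with the tRNA exporter XPOT.

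ATF4 (ENSG00000128272.14) is a transcription factor whose messenger is translated when kinases of the stress response phosphorylate the initiation factor eIF2 and slow most other translation. With C/EBP partners it binds composite elements in the promoters of genes that make, take up and charge amino acids. It also switches on factors that amplify the response, such as DDIT3, and others that end it, such as PPP1R15A. Melanoma cells use the same programme when amino acids run short, and it is known there for its link to invasion and drug tolerance.

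The cells were A375, an established human melanoma line, sampled 7 days after SPANX knockdown, which targets cancer-testis antigens encoded on the X chromosome and normally made in sperm cells. SPANX KD 86 and SPANX KD 87 are the knockdown groups so labelled, and EV is the control group. The labels do not say what 86 and 87 stand for, and the knockdowns so numbered are called constructs here. Each of the 3 groups has 3 libraries of 3′-end RNA sequencing (QuantSeq), and all come from the 1 line, with no other treatment in the labels. Whether the triplicates were separate cultures is not stated, so each p-value reflects spread among these libraries alone, and that spread may be technical.

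The recovered depth was 11.3 to 15.6 M reads per library, and levels below are normalised reads on 1 scale. The targeted transcript SPANXC stood at 102, 35.1 and 42.2 normalised reads in the SPANX KD 86 libraries, 25.2, 18 and 33.6 in the SPANX KD 87 libraries and 400.1, 149.8 and 511 in the EV libraries, so the knockdown libraries were all below the EV libraries. Of 12 markers of the melanocyte lineage and melanoma, 9 were above 0, SOX10, MITF, CSPG4 and MCAM among them, whereas MLANA, TYR and DCT are listed at 0. Their summed level was 44521 to 68010 in SPANX KD 86, 26813 to 41575 in SPANX KD 87 and 15309 to 27860 in EV libraries. With SPANX KD 86, SOX10, S100A1, NGFR, CSPG4 and MCAM were above all EV libraries, and MITF, PMEL and S100B overlapped EV. AXL went the other way, with 2745, 3779 and 3345 normalised reads in SPANX KD 86 libraries against 6307, 9077 and 5545 in EV libraries. With SPANX KD 87, SOX10, MITF, PMEL, S100A1, NGFR and MCAM were above all EV libraries, and S100B, CSPG4 and AXL overlapped EV. Of the markers of other cells, PTPRC, CD3E, CD14, CDH5, VWF, THY1, KRT5, KRT1 and CDH1 are listed at 0. The sum of 7 fibroblast markers, 6 of them above 0, was 952 to 1310 in SPANX KD 86, 883 to 1073 in SPANX KD 87 and 411 to 468 in EV libraries. The sum of 5 keratinocyte markers, of which only KRT14 and KRT10 were above 0, was 693 to 1171, 1348 to 1799 and 1032 to 2191 in the same 3 groups, and the 1 immune marker above 0, LYZ, ranged over 238 to 336, 366 to 820 and 145 to 262. The part of these differences in the results was not tested. In bulk RNA, fewer cells of a type and less RNA per cell cannot be told apart.

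With SPANX KD 86, 15 of the 37 genes fell and 2 rose relative to EV, and with SPANX KD 87, 7 fell and 1 rose. These are calls of limma at a Benjamini-Hochberg adjusted p below 0.05 over all 13825 genes. Among all genes tested, 17.6% fell and 18% rose with SPANX KD 86 (35.6% called), and 4.43% fell and 5.9% rose with SPANX KD 87 (10.3% called), so a fall was the call of 40.5% and 18.9% of the 37 genes. The median log2 fold change of the 37 was -0.51 with SPANX KD 86, beside -0.04 over all genes, and -0.33 with SPANX KD 87, beside 0.00 (1.17e-05) over all genes. PHGDH, PSAT1, ASNS and NUPR1 fell with both constructs and KLHL24 rose with both. The 2 comparisons share their EV libraries, so their calls are not independent.

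Falls occurred in all 4 roles with both constructs, and the rises stood among the stress factors. With SPANX KD 86, 4 of 5 serine and one-carbon genes, 4 of the 5 other enzymes tested, 3 of 14 stress factors and feedback genes and 4 of 13 tRNA genes fell. With SPANX KD 87 the falls were 2, 1, 3 and 1 in the same order. With the replicate number as a block in the fit, MTHFD2, PYCR1, ATF4, TRIB3, CEBPB and IARS also fell with SPANX KD 86. In that fit MTHFD2, GPT2, TRIB3, STC2, NARS and YARS also fell with SPANX KD 87. With the transcript length trend described for KLHL24 also removed, PYCR1, ATF4 and CEBPB did not pass with SPANX KD 86. Compared directly, 5 of the 37 genes were higher and 10 lower with SPANX KD 86 than with SPANX KD 87, where 12.9% and 12.7% of all genes were (25.6% called).

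Counts depended on single libraries and on the pairing of libraries by replicate number. The 15 falls with SPANX KD 86 were 9 without SPANX KD 86 replicate 2, without its replicate 3 or without EV replicate 1, and the 2 rises were 4 without its replicate 3. Over all genes, the 2434 falls with SPANX KD 86 were 1421, 2000 and 1584 without the same 3 libraries in turn. The 7 falls with SPANX KD 87 were 2 without SPANX KD 87 replicate 1, without its replicate 2 or without EV replicate 1. Its 1 rise became 2 without SPANX KD 86 replicate 1, and 0 without SPANX KD 86 replicate 2, any 1 of the SPANX KD 87 libraries, EV replicate 1 or EV replicate 3. With the replicate number as a block, 21 fell and 4 rose with SPANX KD 86, and 13 fell and 2 rose with SPANX KD 87. Among all 13825 genes tested with the block, 3916 fell and 3732 rose with SPANX KD 86, and 2053 fell and 2230 rose with SPANX KD 87. Calls that held without any 1 library were 11 of 17 with SPANX KD 86, 2 of 8 with SPANX KD 87 (NUPR1 and JDP2) and 4 of 15 between the constructs (CTH, JDP2, VLDLR and EPRS). The share of calls over all genes that held in this way was not counted. Fitted on only the 6 libraries compared, the calls of PHGDH (adjusted p = 0.0506), GPT2 (0.0739), NUPR1 (0.0563), EPRS (0.0689) and LARS (0.0716) with SPANX KD 86 and of CEBPG (0.0919), KLHL24 (0.0666) and TARS (0.0783) with SPANX KD 87 were lost.

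**Figure D1:**
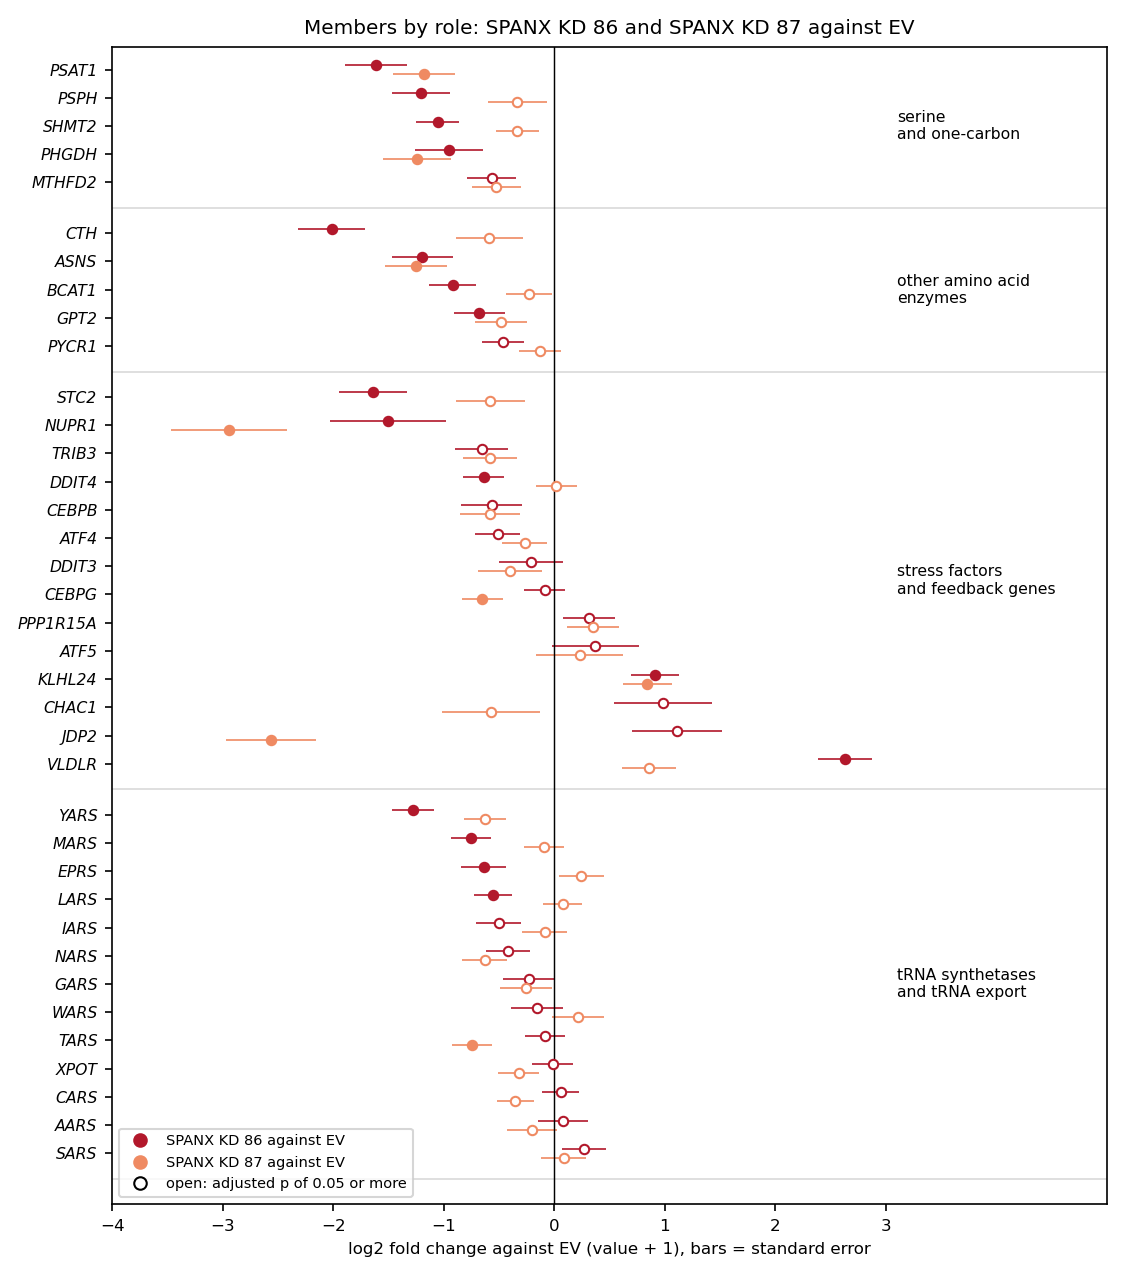
Log2 fold change against EV (x axis, of the value plus 1) of the 37 genes by role, with SPANX KD 86 in dark red above SPANX KD 87 in orange. Bars are standard errors of the limma fit, and filled points passed an adjusted p of 0.05. The serine and amino acid enzymes all lie left of 0 with both constructs. JDP2, CHAC1, DDIT4, EPRS, LARS, AARS, CARS and WARS lie on opposite sides of 0, with JDP2 the farthest apart.

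The promoters of the group were read for the element that ATF4 and C/EBP factors bind, since it is what links these genes in the literature. The motif searched was TGATGNAA on either strand (TTNCATCA as read on the gene's own strand), in windows of 250 bases before to 50 bases after each annotated start (RefSeq, GRCh38.p14; one gene can have several). Of the 38 genes 31 have a window in the table and 12 of those (38.7%) hold a match, beside 289 of 10489 tested genes (2.76%) and 1217 of 27305 genes in all (4.46%). The 12 are ASNS, BCAT1, CHAC1, CEBPG, JDP2, AARS, CARS, GARS, IARS, MARS, NARS and TARS. A match was found for 0 of 3 serine genes, 2 of 4 other enzymes, 3 of 13 stress factors and 7 of 11 tRNA genes, while PSPH, SHMT2, GPT2, PYCR1, NUPR1, LARS and YARS have no window. Of the 12 tested genes with a match 7 were called in at least 1 of the 3 comparisons, or 58.3%, and of the 18 tested genes with a window and no match 8 were, or 44.4%, beside 45.2% of all genes tested. The 5 called genes whose match lies wholly before the start are shown, 250 bases each, 5′ to 3′ on the gene's strand up to the base before the start, with the match in capitals.
ASNS: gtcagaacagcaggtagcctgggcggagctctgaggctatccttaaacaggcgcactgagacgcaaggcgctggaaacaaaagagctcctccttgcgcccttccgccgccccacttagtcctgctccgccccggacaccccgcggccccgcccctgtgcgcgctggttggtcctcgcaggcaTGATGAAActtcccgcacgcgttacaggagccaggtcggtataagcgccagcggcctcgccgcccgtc
BCAT1: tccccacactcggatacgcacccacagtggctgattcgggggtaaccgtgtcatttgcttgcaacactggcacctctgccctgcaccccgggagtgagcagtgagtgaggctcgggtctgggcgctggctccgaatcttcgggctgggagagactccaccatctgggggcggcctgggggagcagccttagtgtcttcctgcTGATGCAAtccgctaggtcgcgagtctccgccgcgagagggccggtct
CHAC1: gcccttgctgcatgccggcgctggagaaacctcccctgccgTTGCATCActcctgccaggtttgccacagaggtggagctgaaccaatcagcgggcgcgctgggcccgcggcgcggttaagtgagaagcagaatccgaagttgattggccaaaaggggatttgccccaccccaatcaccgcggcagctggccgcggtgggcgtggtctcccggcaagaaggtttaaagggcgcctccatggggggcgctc
CEBPG: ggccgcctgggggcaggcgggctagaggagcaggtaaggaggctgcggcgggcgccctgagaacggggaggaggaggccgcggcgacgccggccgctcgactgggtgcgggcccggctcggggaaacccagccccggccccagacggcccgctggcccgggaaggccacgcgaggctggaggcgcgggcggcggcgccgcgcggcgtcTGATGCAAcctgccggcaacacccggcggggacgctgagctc
JDP2: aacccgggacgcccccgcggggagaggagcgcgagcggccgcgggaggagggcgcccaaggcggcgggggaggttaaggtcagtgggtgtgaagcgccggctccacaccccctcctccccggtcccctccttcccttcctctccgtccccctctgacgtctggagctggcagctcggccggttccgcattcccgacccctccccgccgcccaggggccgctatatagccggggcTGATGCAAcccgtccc
These stretches are chr7:97872409-97872658 on the minus strand for ASNS, chr12:24949102-24949351 on the minus strand for BCAT1, chr15:40953221-40953470 on the plus strand for CHAC1, chr19:33373863-33374112 on the plus strand for CEBPG and chr14:75427772-75428021 on the plus strand for JDP2. ASNS carries its match at -68 to -61 from the start shown, BCAT1 at -48 to -41, CEBPG at -42 to -35 and JDP2 at -16 to -9. CHAC1 has its match farther off, at -209 to -202, and on the opposite strand. Apart from CHAC1, each of these genes also has another annotated window, or several, with no match. Which start these cells used was not tested. The core TGATGCAA is the same in BCAT1, CEBPG and JDP2 and, read on the other strand, in CHAC1. These 5 genes did not move alike: ASNS fell with both constructs, BCAT1 fell with SPANX KD 86, JDP2 and CEBPG fell with SPANX KD 87, and CHAC1 passed only between the constructs. A match is a description of the letters, not a bound site.

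The serine pathway was lower in the knockdown libraries, with 4 of its 5 genes down with SPANX KD 86 and 2 with SPANX KD 87. The 5 genes summed to 8520.1, 6468 and 5655 normalised reads in the SPANX KD 86 libraries, 7401, 9062 and 8966 in the SPANX KD 87 libraries and 17403, 12614 and 11856 in the EV libraries, so every knockdown library was below the lowest EV library. No test was made on sums, since an exact permutation of 3 libraries against 3 cannot go below p = 0.1. The median log2 fold change of the 5 was -1.05 with SPANX KD 86 and -0.52 with SPANX KD 87.

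PHGDH (ENSG00000092621.12), which diverts a glycolytic intermediate into serine synthesis, had 1917, 1507 and 882 normalised reads in the SPANX KD 86 libraries, 864, 1350 and 1198 in the SPANX KD 87 libraries and 3412, 2672 and 2031 in the EV libraries. The EV libraries were all above the knockdown libraries, with the SPANX KD 86 libraries the more scattered of the knockdown groups. It fell 1.94-fold with SPANX KD 86 (log2 fold change -0.95, SE 0.31, adjusted p = 0.0334) and 2.37-fold with SPANX KD 87 (log2 fold change -1.24, SE 0.31, adjusted p = 0.029). Without SPANX KD 86 replicate 2, its replicate 3 or EV replicate 1 the SPANX KD 86 call was lost (adjusted p = 0.0667, 0.118 and 0.125). Likewise, the SPANX KD 87 call was lost without SPANX KD 87 replicate 1, its replicate 2 or EV replicate 1 (adjusted p = 0.137, 0.0557 and 0.12).

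PSAT1 (ENSG00000135069.13), the aminotransferase of the next step, had 1611, 944 and 883 normalised reads in the SPANX KD 86 libraries, 1358, 1523 and 1603 in the SPANX KD 87 libraries and 4830, 2894 and 2754 in the EV libraries. All 6 knockdown libraries were below the 3 EV libraries, and EV replicate 1 was the highest of all. PSAT1 was 3.06-fold lower with SPANX KD 86 (log2 fold change -1.61, SE 0.28, adjusted p = 0.00177) and 2.26-fold lower with SPANX KD 87 (log2 fold change -1.18, SE 0.28, adjusted p = 0.0246). The first of these held without any 1 library, while the second was lost without SPANX KD 87 replicate 1, its replicate 2 or EV replicate 1 (adjusted p = 0.109, 0.0733 and 0.0915). Between the constructs neither PHGDH (adjusted p = 0.536) nor PSAT1 (adjusted p = 0.283) passed.

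PSPH (ENSG00000146733.13), the phosphatase that releases serine and that has a related pseudogene, had 377, 278 and 205 normalised reads in the SPANX KD 86 libraries, 615, 448 and 478 in the SPANX KD 87 libraries and 799, 502 and 658 in the EV libraries. Only the SPANX KD 86 libraries lay below all others, and the SPANX KD 87 libraries overlapped EV. It fell 2.3-fold with SPANX KD 86 (log2 fold change -1.20, SE 0.26, adjusted p = 0.00597), its value with SPANX KD 87 was -0.33 (log2, adjusted p = 0.445), and it was 1.83-fold lower with SPANX KD 86 than with SPANX KD 87 (adjusted p = 0.034). The call between the constructs was lost without SPANX KD 86 replicate 2 or 3 or any 1 of the SPANX KD 87 libraries (adjusted p 0.0579 to 0.12).

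SHMT2 (ENSG00000182199.10), the mitochondrial enzyme that splits serine into glycine and a folate-bound carbon, had 1909, 2015 and 1943 normalised reads in the SPANX KD 86 libraries, 2719, 3686 and 3340 in the SPANX KD 87 libraries and 4913, 3988 and 3421 in the EV libraries. Its SPANX KD 86 libraries lay close together and below all others. SHMT2 fell 2.08-fold with SPANX KD 86 (log2 fold change -1.05, SE 0.19, adjusted p = 0.00246), against a log2 value of -0.33 with SPANX KD 87 (adjusted p = 0.295). The difference between the constructs was -0.72 (log2, adjusted p = 0.0205), lost without any 1 of the SPANX KD 86 libraries or SPANX KD 87 replicate 2 or 3 (adjusted p 0.0579 to 0.0878). The 3′ end of SHMT2 overlaps that of NDUFA4L2 on the opposite strand, whose mean level was 17.3 against 3104 for SHMT2, and strand use in the counting is not given in the sources used here.

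MTHFD2, the next mitochondrial folate enzyme, did not pass with either construct (log2 fold change -0.57, SE 0.22, adjusted p = 0.0679 with SPANX KD 86 and log2 fold change -0.52, SE 0.22, adjusted p = 0.155 with SPANX KD 87). With the replicate block it passed with both (adjusted p = 0.0207 and 0.0485). It also passed with SPANX KD 86 without SPANX KD 86 replicate 1 (adjusted p = 0.0219) or EV replicate 2 (0.0369), and with the transcript length trend described for KLHL24 removed (0.0311).

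Of the other amino acid enzymes, 4 of 5 tested fell with SPANX KD 86, and ASNS alone fell with SPANX KD 87. Their sum was 3162, 2635 and 2236 normalised reads in the SPANX KD 86 libraries, 3147, 3889.8 and 3792 in the SPANX KD 87 libraries and 5647, 5094 and 4123 in the EV libraries. All knockdown libraries were below the lowest EV library. The median log2 fold change was -0.92 with SPANX KD 86 and -0.48 with SPANX KD 87.

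ASNS (ENSG00000070669.16) makes asparagine and is the best known target of ATF4. It had 650.1, 458 and 349 normalised reads in the SPANX KD 86 libraries, 461, 472 and 419 in the SPANX KD 87 libraries and 1580, 907 and 868 in the EV libraries. Each knockdown library was below each EV library, and the SPANX KD 87 libraries fell inside the range of the SPANX KD 86 libraries. ASNS was 2.29-fold lower with SPANX KD 86 (log2 fold change -1.19, SE 0.28, adjusted p = 0.00837) and 2.38-fold lower with SPANX KD 87 (log2 fold change -1.25, SE 0.28, adjusted p = 0.02), with a difference of 0.06 (log2, SE 0.28, adjusted p = 0.9) between the constructs. Only the SPANX KD 87 call depended on a single library, being lost without SPANX KD 87 replicate 1, its replicate 2 or EV replicate 1 (adjusted p = 0.0807, 0.0584 and 0.0738).

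CTH (ENSG00000116761.11), which forms cysteine from cystathionine, showed the lowest fold change of the 37 genes with SPANX KD 86. It had 40.7, 29 and 38.7 normalised reads in the SPANX KD 86 libraries, 95.6, 87.3 and 112 in the SPANX KD 87 libraries and 217, 101 and 146 in the EV libraries. In SPANX KD 86 all libraries stood apart below the others, and SPANX KD 87 replicate 3 was above EV replicate 2. It was 4.04-fold lower with SPANX KD 86 (log2 fold change -2.01, SE 0.30, adjusted p = 0.00091) and did not pass with SPANX KD 87 (log2 fold change -0.59, SE 0.30, adjusted p = 0.241). The constructs differed 2.69-fold (log2 fold change -1.43, SE 0.30, adjusted p = 0.00675), and both calls held without any 1 library.

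BCAT1 (ENSG00000060982.14), which transfers the amino group of branched-chain amino acids in the cytosol, had 1306, 1153 and 931 normalised reads in the SPANX KD 86 libraries, 1445, 1978 and 2075 in the SPANX KD 87 libraries and 2038, 2446 and 1908 in the EV libraries. Again the SPANX KD 86 libraries were below all others and the remaining groups overlapped. It fell 1.89-fold with SPANX KD 86 (log2 fold change -0.92, SE 0.21, adjusted p = 0.00715), against a log2 value of -0.23 with SPANX KD 87 (adjusted p = 0.516). The difference of -0.69 (log2, adjusted p = 0.0334) was lost without SPANX KD 86 replicate 2 or 3 or SPANX KD 87 replicate 2 or 3 (adjusted p 0.0849 to 0.12).

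GPT2 (ENSG00000166123.13), the mitochondrial alanine aminotransferase, had 591, 556 and 447 normalised reads in the SPANX KD 86 libraries, 563, 701 and 561 in the SPANX KD 87 libraries and 994, 996 and 610.2 in the EV libraries. EV replicate 3 lay well below the other EV libraries and inside the range of SPANX KD 87. GPT2 fell 1.6-fold with SPANX KD 86 (log2 fold change -0.68, SE 0.23, adjusted p = 0.0416), a call lost without any 1 of 8 libraries, all but EV replicate 3 (adjusted p 0.0519 to 0.135). With SPANX KD 87 its log2 value was -0.48 (adjusted p = 0.208, or 0.043 with the replicate block). PYCR1, the last enzyme of proline synthesis, did not pass (log2 -0.46, adjusted p = 0.082 with SPANX KD 86, or 0.029 with the block, and log2 -0.13, adjusted p = 0.691 with SPANX KD 87). With the length trend removed and the block in the same fit, PYCR1 did not pass with SPANX KD 86.

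**Figure D2:**
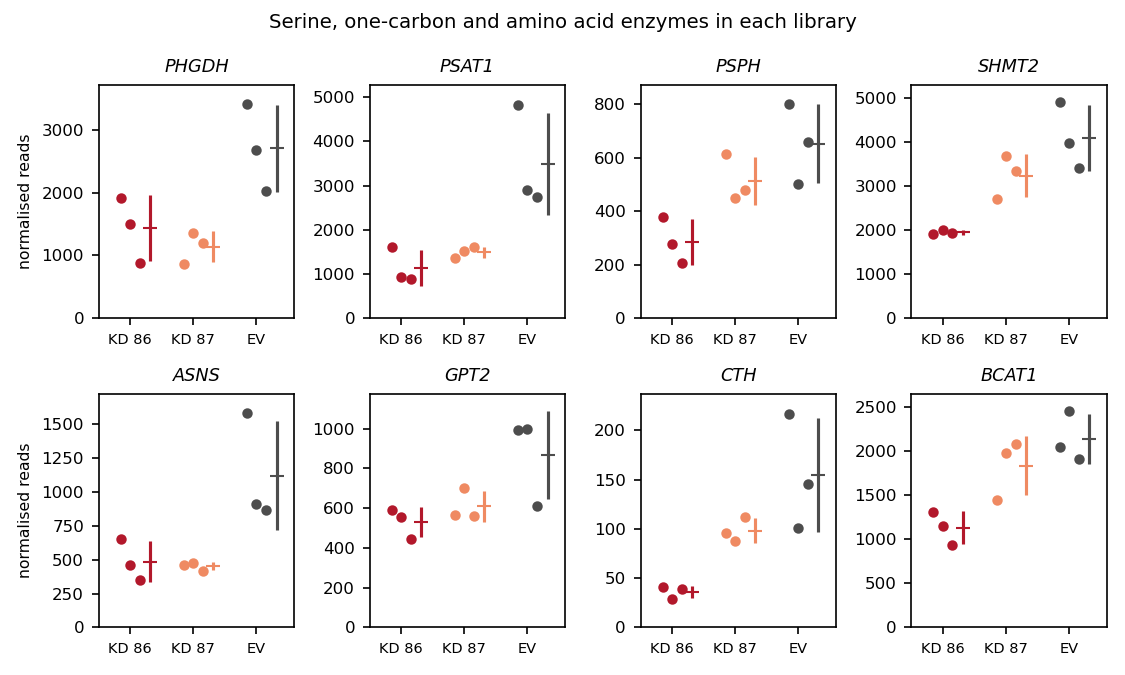
Normalised reads (y axis, from 0) of 8 enzyme genes in each library, with SPANX KD 86, SPANX KD 87 and EV along the x axis. Points are libraries and the crossed bars are mean and SD of 3. PHGDH, PSAT1 and ASNS are low in both knockdown groups, whereas CTH, SHMT2, PSPH and BCAT1 are lowest in SPANX KD 86.

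The stress factors did not move in 1 direction: with SPANX KD 86, STC2, NUPR1 and DDIT4 fell and VLDLR and KLHL24 rose, and with SPANX KD 87, NUPR1, JDP2 and CEBPG fell and KLHL24 rose. The median log2 fold change of the 14 was -0.15 with SPANX KD 86 and -0.49 with SPANX KD 87. Their sum was 10614, 10694 and 10297 normalised reads in the SPANX KD 86 libraries, 10802, 12042 and 11650 in the SPANX KD 87 libraries and 16209, 12174 and 11658 in the EV libraries, and SPANX KD 87 replicate 2 was above EV replicate 3.

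ATF4 itself had 2974, 2651 and 2872 normalised reads in the SPANX KD 86 libraries, 3175, 3207 and 3700 in the SPANX KD 87 libraries and 5059, 3066 and 4246 in the EV libraries. All SPANX KD 86 libraries lay below all EV libraries, whereas the SPANX KD 87 libraries overlapped EV, whose replicates were widely spread. The test did not pass with SPANX KD 86 (log2 fold change -0.51, SE 0.21, adjusted p = 0.0749) or SPANX KD 87 (log2 fold change -0.27, SE 0.21, adjusted p = 0.431). With SPANX KD 86 it passed with the replicate block (adjusted p = 0.0188) and without EV replicate 2 (adjusted p = 0.0101). It did not pass with the block once the transcript length trend described for KLHL24 was removed in the same fit. At 2019 bases ATF4 lies among the shortest transcripts (below 2047 bases), whose median log2 fold change was -0.44 with SPANX KD 86. ATF4 is regulated largely at translation, which these libraries do not measure.

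DDIT3 (ENSG00000175197.11), the pro-apoptotic factor CHOP downstream of ATF4, had 211, 223 and 229 normalised reads in the SPANX KD 86 libraries, 179.7, 174 and 231 in the SPANX KD 87 libraries and 326, 155 and 328 in the EV libraries. EV replicate 2 was the lowest of all 9 libraries and the other EV libraries the highest, so the groups overlapped. Neither construct passed (log2 fold change -0.21, SE 0.29, adjusted p = 0.602 with SPANX KD 86 and log2 fold change -0.40, SE 0.29, adjusted p = 0.403 with SPANX KD 87), although SPANX KD 87 did without EV replicate 2 (adjusted p = 0.0375). The 3′ ends of DDIT3 and of the synthetase gene MARS overlap on opposite strands, with mean levels of 228.5 and 3187 normalised reads, so if the counting ignored strand, the reads of one cannot be told from those of the other.

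VLDLR (ENSG00000147852.15), a lipoprotein receptor induced by ATF4 under stress, rose most. It had 408, 534 and 606 normalised reads in the SPANX KD 86 libraries, 153, 113 and 188 in the SPANX KD 87 libraries and 87.8, 80.4 and 76.5 in the EV libraries. The 3 groups did not overlap. VLDLR was 6.19-fold higher with SPANX KD 86 (log2 fold change 2.63, SE 0.24, adjusted p = 8.16e-05) and 1.81-fold higher with SPANX KD 87, which did not pass (log2 fold change 0.86, SE 0.24, adjusted p = 0.0501, or adjusted p = 0.0127 with the replicate block, 0.0485 among genes with a mean of at least 20 reads and 0.0489 without SPANX KD 86 replicate 1). Between the constructs it differed 3.42-fold (log2 fold change 1.77, SE 0.24, adjusted p = 0.000757).

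JDP2 (ENSG00000140044.12), a leucine zipper protein that pairs with JUN and represses transcription, moved apart between the constructs. It had 208, 187 and 104 normalised reads in the SPANX KD 86 libraries, 14.7, 12.8 and 8.14 in the SPANX KD 87 libraries and 124, 61.2 and 51.8 in the EV libraries. Its SPANX KD 87 libraries were far below all others, and the lowest SPANX KD 86 library was below the highest EV library. JDP2 fell 5.92-fold with SPANX KD 87 (log2 fold change -2.56, SE 0.41, adjusted p = 0.00515) and was 2.16-fold higher with SPANX KD 86 without passing (log2 fold change 1.11, SE 0.41, adjusted p = 0.0538), so that the constructs differed 12.8-fold (log2 fold change 3.68, SE 0.41, adjusted p = 0.000293). The SPANX KD 86 value passed with the replicate block (adjusted p = 0.00345), with a pseudocount of 5 (0.045), with no variance trend (0.0499), with weights from the recovered reads (0.0336), and without SPANX KD 86 replicate 3, SPANX KD 87 replicate 3 or EV replicate 1 (0.0329, 0.0494 and 0.0245).

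STC2 (ENSG00000113739.10), a secreted glycoprotein made under stress, had 156, 170.4 and 124 normalised reads in the SPANX KD 86 libraries, 304, 419.5 and 239 in the SPANX KD 87 libraries and 546, 626 and 298 in the EV libraries. Its SPANX KD 86 libraries were below all others and the SPANX KD 87 and EV libraries overlapped. It fell 3.12-fold with SPANX KD 86 (log2 fold change -1.64, SE 0.31, adjusted p = 0.00275), against a log2 value of -0.58 with SPANX KD 87 (adjusted p = 0.256, or 0.03 with the block). The constructs differed by -1.06 (log2, adjusted p = 0.0282), a call lost without any 1 of the SPANX KD 86 libraries or SPANX KD 87 replicate 1 or 2 (adjusted p 0.0545 to 0.11).

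NUPR1 (ENSG00000176046.8), a small stress-induced chromatin protein, had 31, 29.9 and 22.3 normalised reads in the SPANX KD 86 libraries, 10.5, 5.99 and 13.2 in the SPANX KD 87 libraries and 196, 44.8 and 57.1 in the EV libraries. The knockdown libraries were all below the EV libraries, of which replicate 1 was more than 3 times the others. NUPR1 fell 7.7-fold with SPANX KD 87 (log2 fold change -2.94, SE 0.52, adjusted p = 0.00813) and 2.83-fold with SPANX KD 86 (log2 fold change -1.50, SE 0.52, adjusted p = 0.0456). The second call was lost without any 1 of the SPANX KD 86 libraries, SPANX KD 87 replicate 1, EV replicate 1 or EV replicate 3 (adjusted p 0.0533 to 0.155), and without EV replicate 1 the log2 fold change was -0.86. The difference between the constructs was 1.44 (log2, adjusted p = 0.0669), which passed with the replicate block (adjusted p = 0.0163), with quantile normalisation (0.0412), on the 6 libraries compared (0.0261) and without EV replicate 1 (0.0206) or EV replicate 2 (0.0422).

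KLHL24 (ENSG00000114796.15), an adaptor of a cullin ubiquitin ligase, had 250, 315 and 363 normalised reads in the SPANX KD 86 libraries, 346, 244 and 294 in the SPANX KD 87 libraries and 151, 184 and 154 in the EV libraries. Every knockdown library was above every EV library. KLHL24 rose 1.88-fold with SPANX KD 86 (log2 fold change 0.91, SE 0.22, adjusted p = 0.00962) and 1.79-fold with SPANX KD 87 (log2 fold change 0.84, SE 0.22, adjusted p = 0.0362). The SPANX KD 87 call was lost without any 1 of the SPANX KD 87 libraries, SPANX KD 86 replicate 2, EV replicate 1 or EV replicate 3 (adjusted p 0.0616 to 0.157). Over all genes fold changes moved with transcript length: their median was -0.44 among the shortest transcripts and 0.35 among the longest (the lowest and highest 25% by length) with SPANX KD 86, and -0.20 and 0.18 with SPANX KD 87. KLHL24, at 7380 bases, lies in the longest class (above 5122 bases), and with that trend removed its calls were lost (log2 fold change 0.50, adjusted p = 0.112 with SPANX KD 86 and log2 fold change 0.66, adjusted p = 0.0806 with SPANX KD 87), but with the trend removed and the replicate block in the same fit both passed (adjusted p = 0.0321 and 0.0154). The cause of the length trend was not tested.

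DDIT4 (ENSG00000168209.4), an inhibitor of mTORC1 signalling, had 1804, 1893 and 1839 normalised reads in the SPANX KD 86 libraries, 2545, 3226 and 2996 in the SPANX KD 87 libraries and 3401, 2911 and 2402 in the EV libraries. The SPANX KD 86 libraries were close together and below all others, and the SPANX KD 87 and EV libraries overlapped. It fell 1.56-fold with SPANX KD 86 (log2 fold change -0.64, SE 0.18, adjusted p = 0.0214), and its log2 value with SPANX KD 87 was 0.02 (adjusted p = 0.967). Between the constructs it was 1.58-fold lower with SPANX KD 86 (adjusted p = 0.025). At 1748 bases it lies in the shortest class (below 2047 bases), and with the length trend removed both calls were lost (log2 -0.36, adjusted p = 0.178, and log2 -0.50, adjusted p = 0.0782), though both passed with the block in the same fit (0.0387 and 0.0092). The SPANX KD 86 call was also lost without any 1 of the SPANX KD 86 libraries or EV replicate 1 (adjusted p 0.0559 to 0.0738), and that between the constructs without any 1 of the SPANX KD 86 libraries or SPANX KD 87 replicate 2 or 3 (adjusted p 0.0674 to 0.0992).

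CHAC1 and CEBPG were chosen after their values were seen, because they passed. CHAC1 (ENSG00000128965.11), which degrades glutathione, had 321, 231 and 110.2 normalised reads in the SPANX KD 86 libraries, 76.7, 100.2 and 40.7 in the SPANX KD 87 libraries and 148, 83.1 and 85.2 in the EV libraries. It differed between the constructs, 2.94-fold higher with SPANX KD 86 (log2 fold change 1.55, SE 0.44, adjusted p = 0.026), but passed with neither against EV (adjusted p = 0.106 with SPANX KD 86 and 0.433 with SPANX KD 87). It passed with SPANX KD 86 with the block (adjusted p = 0.0101) and without SPANX KD 86 replicate 3 (0.0299), its lowest library. The difference was lost without SPANX KD 86 replicate 1 or 2 or SPANX KD 87 replicate 1 or 3 (adjusted p 0.0561 to 0.0998).

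CEBPG (ENSG00000153879.8), a C/EBP protein that pairs with ATF4, had 488, 432 and 373 normalised reads in the SPANX KD 86 libraries, 289, 322 and 262 in the SPANX KD 87 libraries and 481, 445 and 441 in the EV libraries. All SPANX KD 87 libraries were below the others. CEBPG fell 1.57-fold with SPANX KD 87 (log2 fold change -0.65, SE 0.18, adjusted p = 0.0476) and was 1.48-fold higher with SPANX KD 86 than with SPANX KD 87 (adjusted p = 0.0445), while its log2 value with SPANX KD 86 was -0.09. The SPANX KD 87 call was lost without any 1 of the SPANX KD 87 libraries, SPANX KD 86 replicate 2 or 3, or EV replicate 1 or 3 (adjusted p 0.0627 to 0.148). That between the constructs was lost without SPANX KD 86 replicate 1 or 2, any 1 of the SPANX KD 87 libraries, or EV replicate 1 or 3 (adjusted p 0.0504 to 0.141), and with the length trend removed (0.0614, or 0.0175 with the block in the same fit).

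The other stress members did not pass in any comparison. TRIB3, a pseudokinase that restrains ATF4, had log2 fold changes of -0.66 (adjusted p = 0.0555) with SPANX KD 86 and -0.58 (adjusted p = 0.148) with SPANX KD 87, and passed with the block in both (adjusted p = 0.00772 and 0.0263). It also passed with SPANX KD 86 on the values as deposited (0.0492), with quantile normalisation (0.0258) and without EV replicate 3 (0.0246). For the factor CEBPB the values were -0.57 (adjusted p = 0.129, or 0.0419 with the block) and -0.58 (adjusted p = 0.198). Its block call with SPANX KD 86 was lost when the length trend was removed in the same fit. ATF5 and PPP1R15A, which returns eIF2 phosphatase activity, had positive log2 values between 0.23 and 0.37 and adjusted p between 0.323 and 0.74. With the length trend removed and the block in the same fit, PPP1R15A was higher with both constructs (adjusted p = 0.0139 and 0.0382). In that fit ATF5 was higher with SPANX KD 86 (adjusted p = 0.0185).

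**Figure D3:**
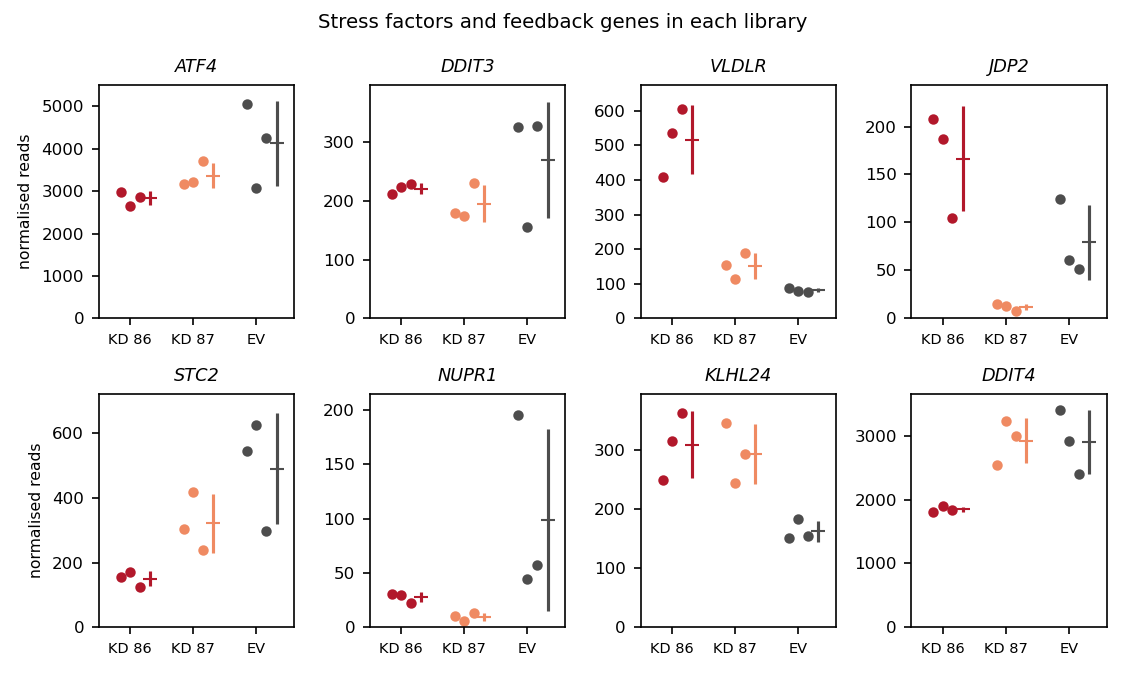
Normalised reads (y axis, from 0) of ATF4, DDIT3 and 6 stress and feedback genes in each library, by group along the x axis. Points are libraries and crossed bars mean and SD of 3. VLDLR separates all 3 groups, JDP2 is lowest in SPANX KD 87, and KLHL24 is higher in both knockdown groups than in EV.

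Of the 12 synthetases and XPOT, YARS, MARS, EPRS and LARS fell with SPANX KD 86 and TARS with SPANX KD 87, and none rose. These cytosolic enzymes attach each amino acid to its tRNA. The 13 genes summed to 39194, 36731 and 31594 normalised reads in the SPANX KD 86 libraries, 37944, 42088 and 36466 in the SPANX KD 87 libraries and 47905, 49850 and 37264 in the EV libraries, so the groups overlapped. Their median log2 fold change was -0.23 with SPANX KD 86 and -0.20 with SPANX KD 87. Between the constructs 4 were lower and 1, TARS, higher with SPANX KD 86.

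YARS (ENSG00000134684.10), which charges tRNA with tyrosine, had 1687, 1512 and 1355 normalised reads in the SPANX KD 86 libraries, 2270, 2593 and 2293 in the SPANX KD 87 libraries and 4356, 3793 and 2985 in the EV libraries. The 3 groups did not overlap, with SPANX KD 86 lowest. YARS was 2.42-fold lower with SPANX KD 86 (log2 fold change -1.28, SE 0.19, adjusted p = 0.000855), a call that held without any 1 library. With SPANX KD 87 it did not pass (log2 fold change -0.62, SE 0.19, adjusted p = 0.0637), but passed with the replicate block (adjusted p = 0.00967), with quantile normalisation (0.0395), with the length trend removed (0.0423) and without EV replicate 3 (0.0387). The constructs differed by -0.65 (log2, adjusted p = 0.0285), which was lost without SPANX KD 86 replicate 2 or 3 or any 1 of the SPANX KD 87 libraries (adjusted p 0.0641 to 0.104).

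EPRS (ENSG00000136628.17) joins the glutamyl and prolyl enzymes in 1 protein. It had 3120, 3146 and 2728 normalised reads in the SPANX KD 86 libraries, 5404, 6021 and 5158 in the SPANX KD 87 libraries and 4389, 5989 and 3838 in the EV libraries. The SPANX KD 86 libraries were below all others, and the SPANX KD 87 libraries lay within the EV range except for replicate 2, the highest of all 9. EPRS fell 1.56-fold with SPANX KD 86 (log2 fold change -0.64, SE 0.20, adjusted p = 0.0308), and its log2 value with SPANX KD 87 was 0.24 (adjusted p = 0.462). The difference between the constructs, -0.88 (log2, SE 0.20, adjusted p = 0.0095), held without any 1 library. The call against EV was lost without any 1 of the SPANX KD 86 libraries, EV replicate 1 or EV replicate 2 (adjusted p 0.0567 to 0.101).

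MARS (ENSG00000166986.14), the methionyl enzyme whose 3′ end overlaps DDIT3, had 2234, 2527 and 1980 normalised reads in the SPANX KD 86 libraries, 3415, 3971 and 3227 in the SPANX KD 87 libraries and 3900, 4111 and 3315 in the EV libraries. All SPANX KD 86 libraries were below the others. MARS fell 1.68-fold with SPANX KD 86 (log2 fold change -0.75, SE 0.18, adjusted p = 0.00966), against a log2 value of -0.09 with SPANX KD 87 (adjusted p = 0.773). Their difference of -0.66 (log2, adjusted p = 0.023) was lost without SPANX KD 86 replicate 1 or 3 or SPANX KD 87 replicate 1 or 2 (adjusted p 0.0581 to 0.0978).

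LARS (ENSG00000133706.17), the leucyl enzyme, which also takes part in leucine sensing by mTORC1, had 2052, 1984 and 1837 normalised reads in the SPANX KD 86 libraries, 2875, 3227 and 3002 in the SPANX KD 87 libraries and 2857, 3353 and 2489 in the EV libraries. Here too the SPANX KD 86 libraries were below all others, while SPANX KD 87 and EV overlapped. LARS fell 1.47-fold with SPANX KD 86 (log2 fold change -0.56, SE 0.17, adjusted p = 0.0287), a call lost without any 1 of the SPANX KD 86 libraries, EV replicate 1 or EV replicate 2 (adjusted p 0.0516 to 0.0938). Its log2 value with SPANX KD 87 was 0.07 (adjusted p = 0.812). The constructs differed by -0.63 (log2, adjusted p = 0.0219), lost without SPANX KD 86 replicate 2 or 3 or any 1 of the SPANX KD 87 libraries (adjusted p 0.0505 to 0.0857).

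TARS (ENSG00000113407.13), the threonyl enzyme, showed the opposite order of the constructs. It had 4654, 4122 and 4360 normalised reads in the SPANX KD 86 libraries, 2360, 2850 and 3154 in the SPANX KD 87 libraries and 5169, 4687 and 4115 in the EV libraries. Only the SPANX KD 87 libraries were below the rest, and the SPANX KD 86 and EV libraries overlapped. TARS fell 1.68-fold with SPANX KD 87 (log2 fold change -0.74, SE 0.18, adjusted p = 0.0282), and its log2 value with SPANX KD 86 was -0.08 (adjusted p = 0.746). It was 1.58-fold higher with SPANX KD 86 than with SPANX KD 87 (adjusted p = 0.0231). The SPANX KD 87 call was lost without SPANX KD 87 replicate 1 or 2, SPANX KD 86 replicate 2 or 3 or EV replicate 1 (adjusted p 0.0503 to 0.138), and that between the constructs without any 1 of the SPANX KD 86 libraries or SPANX KD 87 replicate 1 or 2 (adjusted p 0.059 to 0.0955).

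The other 8 tRNA genes (AARS, CARS, GARS, IARS, NARS, SARS, WARS and XPOT) did not pass, with log2 fold changes between -0.50 (IARS) and 0.27 (SARS) with SPANX KD 86, and between -0.63 (NARS) and 0.21 (WARS) with SPANX KD 87. IARS, the isoleucyl enzyme, had 3609, 3224 and 2726 normalised reads in SPANX KD 86 libraries, all below the 4683, 5272 and 3640 of EV libraries (adjusted p = 0.0771). It passed with SPANX KD 86 with the block (adjusted p = 0.0101), with quantile normalisation (0.0471), with the length trend removed (0.00843) and without EV replicate 3 (0.0389), and between the constructs with the block (0.0319) and the length trend removed (0.0373). NARS, the asparaginyl enzyme, passed with SPANX KD 87 with the block (adjusted p = 0.0173). With the block, CARS (0.0231) and WARS (0.04) differed between the constructs. With the length trend removed and the block in the same fit, SARS was higher with SPANX KD 86 than with EV (0.0022) and SPANX KD 87 (0.0327). In that fit XPOT (0.0362 and 0.0197) and NARS (0.0497 and 0.0099) were lower with SPANX KD 86 and SPANX KD 87, and CARS was lower with SPANX KD 87 (0.0462). XPOT, which carries tRNA out of the nucleus, had 4868, 4452 and 4312 normalised reads in SPANX KD 86 libraries, within the range of EV libraries at 4666, 5380 and 3836.

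**Figure D4:**
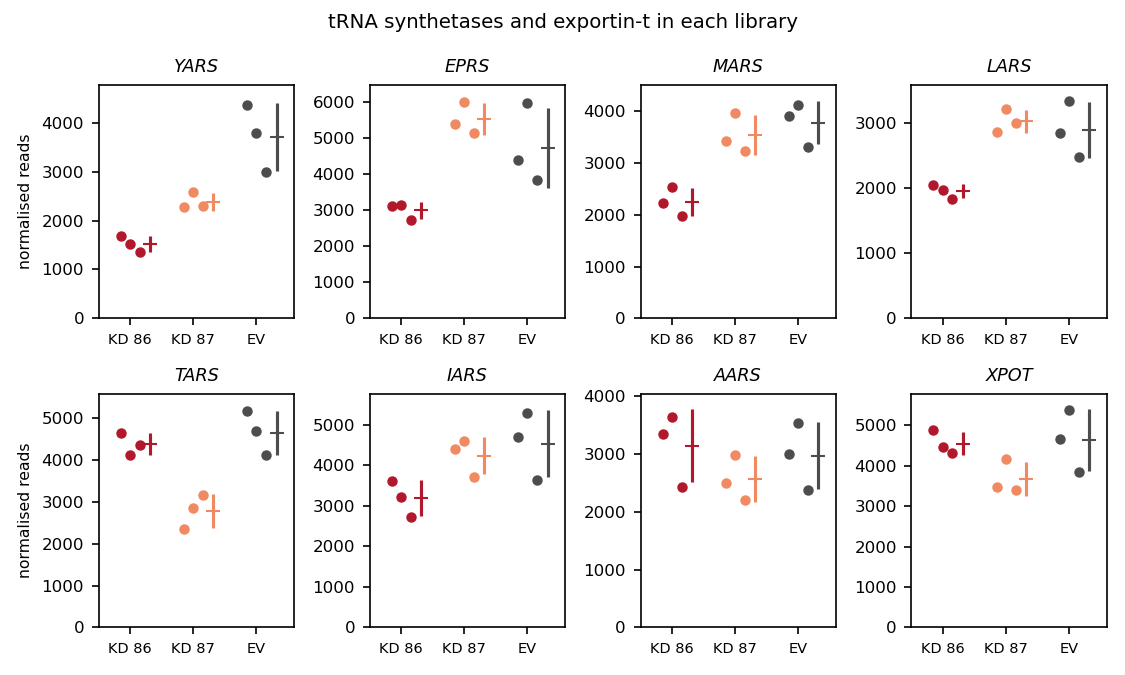
Normalised reads (y axis, from 0) of 7 tRNA synthetase genes and XPOT in each library, by group along the x axis. Points are libraries and crossed bars mean and SD of 3. YARS, EPRS, MARS and LARS are lowest in SPANX KD 86, TARS is lowest in SPANX KD 87, and the groups overlap for AARS and for SPANX KD 86 and EV in XPOT.

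Synthetases outside the list also fell with SPANX KD 86. Of 11 further cytosolic synthetase genes and scaffolds of their complex, 4 fell with SPANX KD 86 (36.4%, beside 17.6% of all genes) and 0 with SPANX KD 87 (4.43% of all genes). They were VARS (log2 fold change -1.39, SE 0.22, adjusted p = 0.00106), FARSB (-0.98, adjusted p = 0.00918), FARSA (-0.90, adjusted p = 0.0079) and KARS (-0.70, adjusted p = 0.0263). VARS, the valyl enzyme, had 1170, 1486 and 1309 normalised reads in the SPANX KD 86 libraries, 2589, 3786 and 3027 in the SPANX KD 87 libraries and 3465, 4240 and 2794 in the EV libraries, with SPANX KD 86 apart from the rest. It was also lower with SPANX KD 86 than with SPANX KD 87 (log2 fold change -1.23, SE 0.22, adjusted p = 0.00252). With the replicate block FARSA (adjusted p = 0.0225), FARSB (0.0336) and KARS (0.0153) were lower with SPANX KD 86 than with SPANX KD 87 too, as were FARSA (0.029 and 0.0398) and KARS (0.0387 and 0.0466) with quantile normalisation and on the 6 libraries compared. The KARS call against EV was lost with the length trend removed (adjusted p = 0.0606, or 0.00418 with the block in the same fit), on the 6 libraries compared (0.0591) and without SPANX KD 86 replicate 2 or 3 or EV replicate 1 (0.0802 to 0.0999). FARSB was lower with SPANX KD 87 than with EV with the length trend removed and the block in the same fit (adjusted p = 0.0428).

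Of the 17 mitochondrial synthetases, 8 fell with SPANX KD 86 (47.1%, beside 17.6% of all genes) and 0 with SPANX KD 87, with no rise. The 4 of smallest adjusted p were (log2) CARS2 (-1.09, adjusted p = 0.00107), MARS2 (-1.46, adjusted p = 0.00112), TARS2 (-1.004, adjusted p = 0.00238) and SARS2 (-0.999, adjusted p = 0.0109). MARS2 had 102, 125 and 132 normalised reads in the SPANX KD 86 libraries, 358, 427 and 342 in the SPANX KD 87 libraries and 362, 398 and 248 in the EV libraries, lower with SPANX KD 86 than with SPANX KD 87 by 3.13-fold (adjusted p = 0.000807). The median log2 fold change was -0.49 with SPANX KD 86 and -0.24 with SPANX KD 87. At 0 calls with SPANX KD 87 by limma, the number at an unadjusted p under 0.05 was 2 of 17, and 1 of 11 in the cytosolic list. Among all 13825 genes tested it was 3793.

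Upstream of ATF4, the eIF2 kinase PERK (EIF2AK3), which answers stress in the endoplasmic reticulum, rose with SPANX KD 86. It had 574, 532 and 427 normalised reads in the SPANX KD 86 libraries, 203, 203 and 126 in the SPANX KD 87 libraries and 151, 207 and 156 in the EV libraries, with no overlap between SPANX KD 86 and either other group (log2 fold change 1.57, SE 0.25, adjusted p = 0.00113, and adjusted p = 0.957 with SPANX KD 87). The heme-regulated kinase EIF2AK1 fell with SPANX KD 86 (log2 fold change -0.87, SE 0.22, adjusted p = 0.0131). EIF2B5, the catalytic subunit of the exchange factor that restores eIF2, fell with SPANX KD 87 to 331, 443 and 383 normalised reads, against 847, 964 and 734 in EV libraries (log2 fold change -1.14, SE 0.20, adjusted p = 0.00799). Of the 15 genes in this list 1 rose and 4 fell with SPANX KD 86, EIF2B1 (-0.67, adjusted p = 0.0135) among the falls, and 1 fell with SPANX KD 87. Those shares are 6.67% and 26.7% with SPANX KD 86 and 6.67% with SPANX KD 87, beside 18% higher, 17.6% lower and 4.43% lower among all genes. The EIF2B1 call was lost without SPANX KD 86 replicate 2 (adjusted p = 0.0611) or 3 (0.0509), and EIF2B1 passed with SPANX KD 87 with the block (0.0273).

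Of 10 amino acid transporters linked to ATF4, the glutamine and alanine carrier SLC38A2 moved in opposite directions. It had 11640, 10370 and 9910 normalised reads in the SPANX KD 86 libraries, 2857, 3359 and 3623 in the SPANX KD 87 libraries and 6495, 6400 and 6987 in the EV libraries, and the 3 groups did not overlap. SLC38A2 rose 1.6-fold with SPANX KD 86 (log2 fold change 0.68, SE 0.18, adjusted p = 0.0135), lost with the length trend removed (log2 0.44, adjusted p = 0.0861, or 0.0264 with the block in the same fit), and fell 2.03-fold with SPANX KD 87 (log2 fold change -1.02, SE 0.18, adjusted p = 0.00746). SLC43A1 fell with SPANX KD 87 (log2 fold change -1.54, SE 0.25, adjusted p = 0.00562) and SLC38A1 with SPANX KD 86 (log2 fold change -0.67, SE 0.22, adjusted p = 0.0357), a call lost without any 1 of the SPANX KD 86 libraries, SPANX KD 87 replicate 1 or EV replicate 1 or 2 (adjusted p 0.0511 to 0.121) or on the 6 libraries compared (0.0602). With the replicate block SLC43A1 was also lower with SPANX KD 86 (log2 fold change -0.66, adjusted p = 0.0239), as it was with quantile normalisation (0.0376), no variance trend (0.0446) and weights from the recovered reads (0.0443). SLC38A1 was likewise lower with SPANX KD 87 (log2 fold change -0.58) with the block (adjusted p = 0.0106), and with the length trend removed (log2 fold change -0.78, adjusted p = 0.00888). SLC7A1, the carrier of cationic amino acids, passed with neither construct (log2 fold change -0.86, adjusted p = 0.0598 with SPANX KD 86 and log2 fold change -0.58, adjusted p = 0.273 with SPANX KD 87). It passed with both with the block (adjusted p = 0.00161 and 0.0262) and with the length trend removed (0.00124 and 0.0392), and with SPANX KD 86 with quantile normalisation (0.0365). In all, 1 of the 10 rose and 1 fell with SPANX KD 86 (10% each, beside 18% and 17.6% of all genes), and 2 fell with SPANX KD 87 (20%, beside 4.43%). The list's medians were -0.35 with SPANX KD 86 and -0.58 with SPANX KD 87.

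Of 20 further ATF4 and folate genes, 18 were tested (FGF21 and GPT are listed at 0). With SPANX KD 86, 8 fell and 3 rose (44.4% and 16.7%, beside 17.6% and 18% of all genes), and with SPANX KD 87, 1 fell and 3 rose (5.56% and 16.7%, beside 4.43% and 5.9%). The mitochondrial folate enzyme ALDH1L2 fell to 52.3, 72 and 49.2 normalised reads in SPANX KD 86 libraries, against 246, 302 and 177 in EV libraries (log2 fold change -2.03, SE 0.28, adjusted p = 0.000613). The aspartate aminotransferase GOT1 (-1.28, adjusted p = 0.000614), the mitochondrial PCK2 (-1.47, adjusted p = 0.000846) and the cytosolic folate enzyme MTHFD1 (-1.45, adjusted p = 0.00186) fell with it, and all 4 were lower with SPANX KD 86 than with SPANX KD 87 (adjusted p 0.00189 to 0.00933). With the block GOT1 was also lower with SPANX KD 87 (log2 fold change -0.41, adjusted p = 0.0462). With the length trend removed as well, so was MTHFD1 (log2 fold change -0.51, adjusted p = 0.0296).

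The few rises and the 1 fall with SPANX KD 87 in that list are named after their values were seen. SESN2, a leucine sensor, rose with both constructs, with 1446, 1380 and 679 normalised reads in the SPANX KD 86 libraries, 1271, 1077 and 609.7 in the SPANX KD 87 libraries and 324, 367 and 224 in the EV libraries (adjusted p = 0.00272 and 0.017). TXNIP, an inhibitor of thioredoxin and glucose uptake, also rose with both (1.28, adjusted p = 0.0481, and 1.95, adjusted p = 0.023), the first lost without any 1 of 7 libraries, all but SPANX KD 87 replicates 1 and 2 (adjusted p 0.053 to 0.111), and on the values as deposited (0.0526), with quantile normalisation (0.0679) and with no variance trend (0.0643). On the 6 libraries compared, the SPANX KD 87 calls of TXNIP (0.0548) and ATF3 (0.0549) were lost. HERPUD1 rose with SPANX KD 86 (0.73, adjusted p = 0.0147), ATF3 with SPANX KD 87 (1.26, adjusted p = 0.0311), and EIF4EBP1 fell with SPANX KD 87 (-1.61, adjusted p = 0.0123). With SPANX KD 86 the log2 fold change of ATF3 was negative, and it passed with the block (-0.50, adjusted p = 0.0464), but not with the length trend removed in the same fit. The SPANX KD 87 calls of SESN2, TXNIP and ATF3 were lost without SPANX KD 87 replicate 1 (adjusted p = 0.0887, 0.0952 and 0.138) or EV replicate 1 (0.0597, 0.0721 and 0.0629). Those of SESN2 and ATF3 were also lost without SPANX KD 87 replicate 2 (0.063 and 0.0963) or EV replicate 3 (0.052 and 0.0759), that of TXNIP without SPANX KD 87 replicate 3 (0.0524), and the HERPUD1 call without SPANX KD 86 replicate 1 (0.0523).

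**Figure D5:**
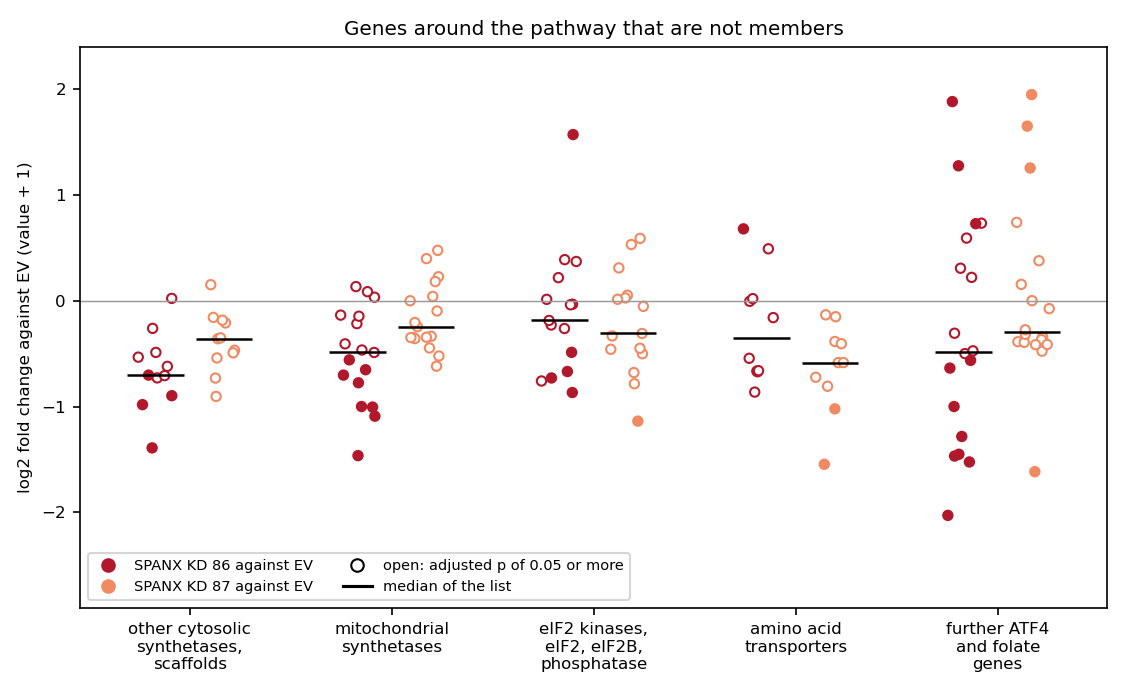
Log2 fold change against EV (y axis, of the value plus 1) for the tested genes of 5 lists that are not among the 38, with SPANX KD 86 in dark red left of SPANX KD 87 in orange. Filled points passed an adjusted p of 0.05 and black lines are list medians. The medians lie below 0 in all 5 lists with both constructs, and the highest filled SPANX KD 86 points are SESN2 and EIF2AK3.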

How the data were processed

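The 9 libraries were made with the QuantSeq 3′ mRNA-Seq kit (FWD) and sequenced single end (75 bases), per the labels' protocols. The deposited values are the authors' normalised read counts per gene, a score made of reads scaled per library and then rounded to whole numbers. STAR, featureCounts, Subread and edgeR, all without versions, and the build hg19 appear in the submitters' processing notes. A value of 0 throughout a group's files means filtered out, not unexpressed, and the files list 400 gene IDs above 0 only with EV and SPANX KD 86 and 453 only with SPANX KD 87.

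Each library's scaling constant was recovered from the spacing of its low values, which gave 11.3 to 15.6 M reads per library. In the 5 libraries whose constant is above 1, where the check can fail, 89.4% to 98.5% of values equalled a whole number of reads times the constant after rounding. Their constants were 1.0206 to 1.1535. So near 1, most whole numbers pass the check whatever the data, so it says little about whether the constants are right. Reads were rescaled with the TMM formula (trimming 30% of log ratios and 5% of abundances). A count test had been planned for unscaled counts. As the values are scaled, limma 3.58.1 in R 4.3.3 was used on log2(value + 1), with its variance trend, a coefficient for each group over all 9 libraries and 6 residual degrees of freedom. Tests are two-sided, with Benjamini-Hochberg adjustment over 13825 genes, and folds are on the value plus 1 scale, which understates those of low genes. The fit was tested on simulated data.

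The members, lists and tests were chosen with earlier results of these data known. Values in all libraries are given for the 6 members of each role with the smallest adjusted p over the 3 comparisons among those that passed, and for ATF4, DDIT3, ASNS and PHGDH. Up to 4 genes of each further list are named, those with the smallest adjusted p against EV. Libraries of the same replicate number deviated together from their group means. Across 13311 genes, r was 0.208 to 0.745 in all 9 such pairs, against -0.66 to 0.151 in the other 18. Deviations sum to 0 within a group, so positive values in the 9 push the 18 down. The 18 are thus not separate evidence. From the positive r in all 9 pairs, the numbers were taken to pair the samples. Values with the replicate block stand beside the named genes whose calls they change, and beside the counts of calls over all members. Counts by role, by promoter match and of the further lists are given without the block, which changes some of them. Transcript lengths came from GENCODE v29 for 13770 genes, and the correction removed from each library a spline (4 degrees of freedom) over log transcript length. Overlapping 3′ ends were taken from the same annotation, over the last 500 bases. Promoter windows were matched by gene ID to RefSeq on GRCh38.p14.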

Additional observations from a re-analysis of the deposited data

Results flagged for a closer look

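For 15 of the 37 genes the effect differed between the constructs by the direct test of the difference (limma, Benjamini-Hochberg adjusted p below 0.05 over all genes). Among all genes tested 25.6% were called, and 4 of the 15 calls (CTH, JDP2, VLDLR and EPRS) held without any 1 library, a share not counted over all genes. Values are log2 differences, SPANX KD 86 minus SPANX KD 87. The difference was positive for JDP2 (3.68), VLDLR (1.77), CHAC1 (1.55), TARS (0.66) and CEBPG (0.56). It was negative for CTH (-1.43), STC2 (-1.06), EPRS (-0.88), PSPH (-0.87), SHMT2 (-0.72), BCAT1 (-0.69), DDIT4 (-0.66), MARS (-0.66), YARS (-0.65) and LARS (-0.63). The fitted changes against EV had opposite signs with SPANX KD 86 and SPANX KD 87 for JDP2 and 4 more of the 15. These were CHAC1 (0.98 and -0.57), EPRS (-0.64 and 0.24), LARS (-0.56 and 0.07) and DDIT4 (-0.64 and 0.02). For JDP2 all 3 SPANX KD 87 libraries lay below all others.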

How the results depend on the processing

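No fold change of the 37 genes changed sign where it was called. With the replicate block, SPANX KD 86 against EV gave 4 members higher and 21 lower (7648 of all genes called, against 4928 without the block), SPANX KD 87 against EV gave 2 higher and 13 lower (4283 against 1428), and SPANX KD 86 against SPANX KD 87 gave 7 higher and 12 lower (6096 against 3533). The block added 19 calls of members over the 3 comparisons and ended 0. With the transcript length trend removed, 1 member rose and 16 fell with SPANX KD 86, beside 2560 and 2611 of all 13770 genes. The SPANX KD 87 counts were 0 and 8, beside 1098 and 977. With the block and this removal together, 7 rose and 20 fell with SPANX KD 86, beside 3662 and 3911 of all genes (7573 called). For SPANX KD 87, 3 rose and 15 fell, beside 2429 and 2370 (4799 called). In that fit 8 were higher and 12 lower with SPANX KD 86 than with SPANX KD 87, beside 3214 and 3358 (6572 called). Fitted on only the 6 libraries compared, SPANX KD 87 against EV gave 0 members higher and 852 genes called. Among genes with a mean of at least 20 normalised reads it gave 2 members higher, beside 824 of all 13311 genes. Leaving out 1 library gave 2 to 4 members higher and 9 to 16 lower with SPANX KD 86 (3055 to 6013 genes), 0 to 2 higher and 2 to 8 lower with SPANX KD 87 (366 to 2551 genes), and 2 to 6 higher and 2 to 10 lower between the constructs (2203 to 4193 genes). Median-of-ratios size factors changed no call of a member, and the values as deposited, quantile normalisation, a pseudocount of 5, no variance trend and weights from the recovered reads each changed between 1 and 7. These include GPT2 with SPANX KD 86 (adjusted p = 0.0554 with no variance trend), NUPR1 with SPANX KD 86 (0.0791 with quantile normalisation and 0.0567 with weights from reads), CEBPG with SPANX KD 87 (0.0573 with no variance trend) and CEBPG between the constructs (0.0506 on the values as deposited, 0.0534 with quantile normalisation, 0.0518 with no variance trend and 0.0524 on the 6 libraries compared). The cause of these changes was not tested. The depth limits genes of few reads most, such as NUPR1 and JDP2 with SPANX KD 87 and CTH with SPANX KD 86.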
